A study of Homo sapiens with 32 samples.

Results

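The nucleoporin genes encode the proteins of the nuclear pore complex. They were taken here as the protein-coding genes of GENCODE 44 on chromosomes 1 to 22 and X whose symbol is NUP followed by a digit, plus TPR, RANBP2, POM121, POM121C, NDC1, SEH1L, SEC13, AAAS, RAE1, AHCTF1 and GLE1. The rule found 34 genes among 19970, and it used symbols only, no measured value. For each gene, the summits of 4 ChIP-seq lists within 500 bp of the 5′ end of the gene record were collected, with their offset from that end and their score.

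The nuclear pore complex is a channel through the nuclear envelope that carries proteins and RNA between nucleus and cytoplasm. It is built from a Y-shaped scaffold on both faces, an inner ring, membrane anchors, a central channel lined by phenylalanine-glycine repeats, filaments on the cytoplasmic side and a basket on the nuclear side. Its genes are active in dividing cells generally, and pores are rebuilt after each mitosis. ZNF143 is a zinc finger activator that binds promoters, SP1 binds GC boxes, NRF1 binds a GC-rich palindrome, and YY1 binds a site around an ATGG core near many start sites.

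ChIP-seq recovers and sequences the DNA bound by a protein. The 32 samples were all of HEK293T, a human embryonic kidney cell line, and of a single clone, HEK_CloneZD29. Per the growth protocol and the study's design text, the cells of every group, untreated controls included, carried ZNF143 fused to a degron, a tag through which dTAGV-1 sends the protein to the proteasome; an untagged line and a second clone were not analysed here. Chromatin was recovered through the HA tag of ZNF143, with antibodies against SP1, YY1 or NRF1 (spelled Nrf1 in titles), or in a mock precipitation, either without treatment or after 30 min of dTAGV-1 at 50 nM. Each combination of antibody and treatment had 4 samples, except that ZNF143 and the mock had 2.

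The 4 deposited lists hold 1-bp summits, the points of highest signal in called peaks, and no value per sample or treatment. Nothing below is therefore a comparison between treatments, no error between replicates can be given, and no list of the mock was analysed here. The score is the authors' −log10 p or q, a measure of how far a peak rises above background, and which of p and q it is was not stated. It grows with read depth, which is unknown, so scores were compared only within a list, through the share of the list's summits that score at least as high (the top percent). The lists hold between 16600 summits (ZNF143) and 126275 (SP1), and the score that bounds the top 10% was 1684 (ZNF143), 229.5 (SP1), 353.9 (NRF1) or 142.3 (YY1). Summit lists measure no expression, so markers of the cell line could not be checked.

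Most nucleoporin genes had summits of all 4 lists within 500 bp of the 5′ end. Any summit counted, down to the lowest score of 2.00. A ZNF143 summit lay within 500 bp of 29 of 34 genes (85.3%, Wilson 95% interval 69.9 to 93.6%), against 31.7% of all protein-coding genes. SP1 was present at 32 (94.1%, against 59.1%), NRF1 at 31 (91.2%, 77.0 to 97.0%, against 48.3%) and YY1 at 32 (against 57.8%). All 4 lists had a summit at 29 genes, against 28.1% of all genes, and 2 genes, NUP35 and NUP210L, had none, against 37.3%. The intervals cover the counting of genes only, and genes are not replicates of a condition. Among genes with SP1, NRF1 and YY1 summits, ZNF143 was present at 29 of 31 nucleoporin genes (93.5%, 79.3 to 98.2%), against 61.8% of 9091 genes. With each list cut to its 16165 best summits, the number of ZNF143 summits on chromosomes 1 to 22 and X, all 4 lists met at 19 genes, against 18.1% of all genes. SP1 then stood at 26 genes (32.6% of all genes), NRF1 at 28 (40.2%) and YY1 at 25 (36.0%). With the top 50% of each list, all 4 met at 22 genes, against 16.2%, and with a window of 250 bp at 21, against 18.9%.

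**Figure D1:**
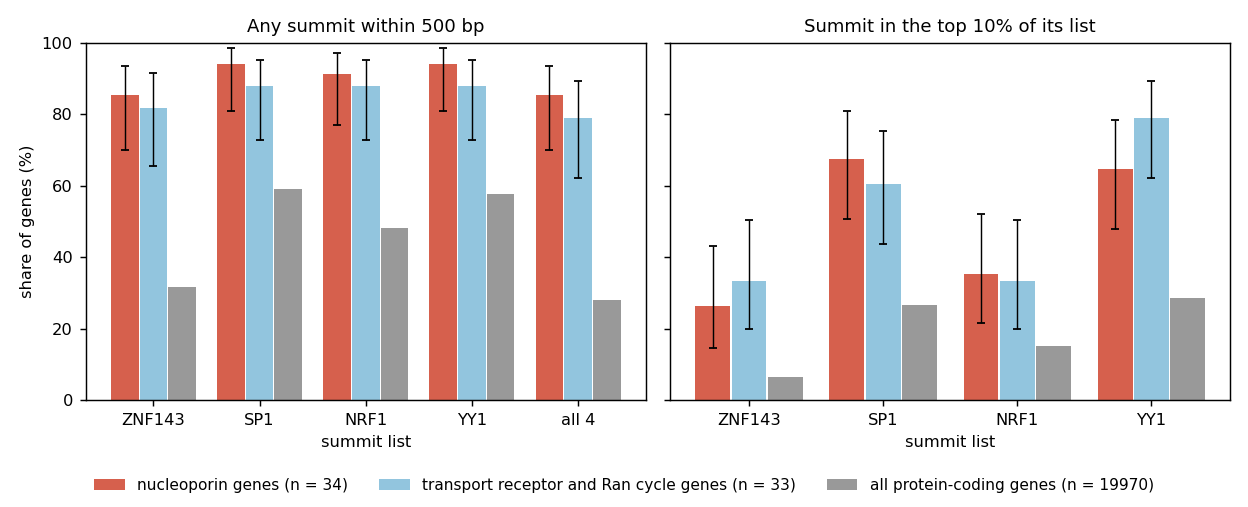
Share of genes, in percent, with a summit of each list within 500 bp of the 5′ end (left) and with a summit in the top 10% of that list (right), for the 34 nucleoporin genes, the 33 transport genes and all 19970 protein-coding genes. Bars start at 0, and the error bars are Wilson 95% intervals over genes; for ZNF143 the nucleoporin bar stands at 85.3% and the bar for all genes at 31.7%.

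Strong summits were counted within each list. ZNF143 summits in the top 10% of their list stood at 9 nucleoporin genes (26.5%, interval 14.6 to 43.1%), against 6.47% of all genes. For SP1 the count was 23 (67.6%, 50.8 to 80.9%, against 26.7%), for NRF1 12 (35.3%, 21.5 to 52.1%, against 15.1%) and for YY1 22 (64.7%, 47.9 to 78.5%, against 28.5%). These shares are over all genes, with or without a summit, so they also hold the difference in presence. Among genes with a summit, the median score was 298 for SP1 against 197 over all such genes. It was 56.6 for NRF1 against 48.0, and 271 for YY1 against 139. The median NRF1 summit stood in the top 16.98% of its list, against 18.05%. The lists differ in length, so these counts do not rank the factors against each other.

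The ZNF143 scores at the 29 genes ran from very strong to the floor of the list, with none between 121 and 515 at these 5′ ends. NDC1, NUP205, NUP153, NUP88, TPR, AHCTF1, NUP93, POM121C, NUP43 and NUP58 had 30790 down to 1635, NUP62 had 855, POM121 had 515, and the other genes ran from 121 (NUP133) down to 2.01 (GLE1). The lowest of these, at GLE1, sits at the floor of the list, where 99.9% of summits score as high or higher. The median was 50.7 (quartiles 18.1 and 2202), against 23.6 over all genes with a ZNF143 summit, and it was 28.99 over the 22 genes left after removing those with another gene's 5′ end within 1000 bp, against 18.95. With a window of 250 bp it was 33.4, against 25.9.

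**Figure D2:**
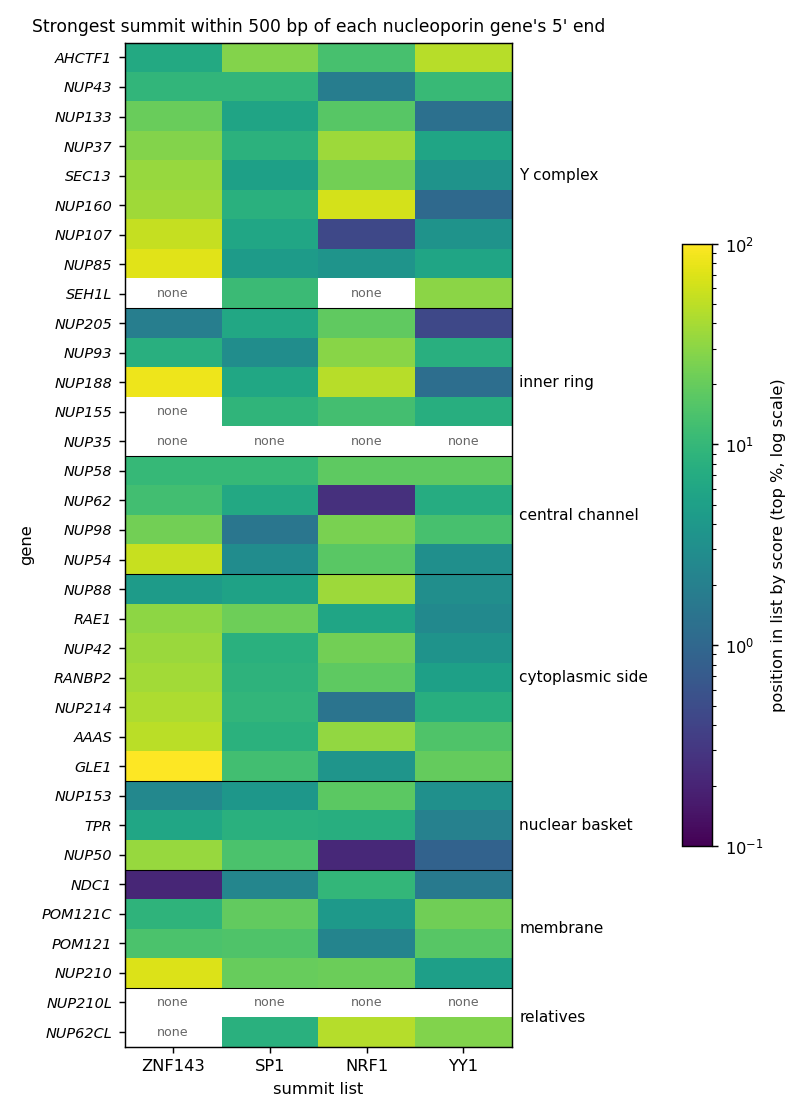
Heat map with 1 line per nucleoporin gene, grouped by role, and 1 column per list; colour gives the top percent of the gene's highest summit on a log scale, darker being stronger, and white cells have no summit within 500 bp. NDC1 is the darkest ZNF143 cell at 0.21%, NUP50 the darkest NRF1 cell at 0.22%, and NUP35 and NUP210L are white throughout.

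NDC1, a transmembrane nucleoporin that anchors the pore in the envelope (chromosome 1, minus strand, 53765478 to 53838463 in hg38), had the highest ZNF143 score of the nucleoporin genes, 30790, in the top 0.21% of the list and 142 bp upstream of its 5′ end. Its SP1 summit scored 862 at −49, its YY1 summit 1018 at −59, and its NRF1 summit 382 at +296. Offsets are in bp along the gene, negative upstream of the 5′ end. The stretch around the ZNF143 summit is printed because it holds 3 copies of CCCANNATG, a core of the ZNF143 consensus, in capitals, all on the gene's strand and starting at −234, −165 and −110. The coordinates are chr1:53838558-53838698, minus strand, hg38, written 5′ to 3′ along the gene.
NDC1 ZNF143: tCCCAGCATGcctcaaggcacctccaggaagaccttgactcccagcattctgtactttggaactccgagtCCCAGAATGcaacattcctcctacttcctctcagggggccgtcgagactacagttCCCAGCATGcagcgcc

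NUP205, a large scaffold protein of the inner ring (chromosome 7, plus strand, 135557917 to 135648757), came next for ZNF143 with a score of 12244 at −195, in the top 1.90%. It had the highest YY1 score at the gene-record 5′ ends of the nucleoporin genes, 3397 at +49 in a coding exon and in the top 0.45% of that list, beside SP1 at 385 (−103) and NRF1 at 45.8 (−121). It was the only nucleoporin gene whose promoter, from 250 bp before to 50 bp after the 5′ end, held ACTACAA followed after 2 bases by CCCANNATG, an arrangement found in 0.175% of all promoters, or 35 genes. Both elements are in capitals in the first sequence, at chr7:135557667-135557696. The second, just inside the gene at chr7:135557931-135557960, carries the YY1 motif AANATGGCG. Both are on the plus strand of hg38.
NUP205 ZNF143: ttagaaACTACAAgtCCCAGGATGcactac
NUP205 YY1: agtgcgcctctAAGATGGCGacgcctttgg

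None of the other 7 ZNF143 summits in the top 10% had ACTACAA or CCCANNATG within 50 bp, but most had the hexamer TCCCAG, which shares CCCA with the longer core. NUP153, a basket protein that binds importins, scored 10135 at −99. NUP88, a partner of NUP214 on the cytoplasmic side, scored 6195 at +50, and TPR, which forms the filaments of the basket, scored 4514 at +334. NUP58, a channel nucleoporin just outside the top 10% with 1635 at −16, was the nearest miss. Each had TCCCAG within 50 bp of the summit, in capitals below, as CTGGGA on the opposite strand for NUP88. The hexamer was looked up after the sequences had been seen. The stretches are chr6:17707019-17707048 (minus) for NUP153, chr17:5420085-5420114 (minus) for NUP88, chr1:186375363-186375392 (minus) for TPR and chr13:25301479-25301508 (plus) for NUP58, all in hg38.
NUP153: ttgaactacgttTCCCAGcgtgccgcgcgg
NUP88: tcgcagcgtattCTGGGAagtgttgtttta
TPR: aaacactacattTCCCAGagccctacaagg
NUP58: attctcgcctggTCCCAGcgtaccttgcgc

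Counted over all, TCCCAG lay within 50 bp of the ZNF143 summit at 11 of the 29 nucleoporin genes, against 23.9% of all genes with such a summit. In the top 10% of the list it was at 7 of 9 nucleoporin genes, all but AHCTF1 and NUP43, against 49.5%. Below the top 10% it was at 4 of 20, against 17.4%. The hexamer was chosen from sequences at these genes' strongest summits, so the 11 of 29 and 7 of 9 cannot show an excess. The full cores, ACTACAA or CCCANNATG, lay near the summit at 3 of 29 (NDC1, NUP205 and NUP98), against 10.8%. They were near 2 of the 9 top summits, against 39.9%, and near 1 of the 20 others, against 3.34%. The 2 are NDC1 and NUP205, where TCCCAG overlaps CCCANNATG, so both are also among the 7 genes with the hexamer. A match is a description of letters, and no match says only that these letters were not in the window.

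The Y complex is the scaffold that coats both faces of the pore. All 9 of its genes had SP1 and YY1 summits, and 8 had ZNF143 and 8 NRF1 summits. The top 10% of the lists held 2 ZNF143, 7 SP1, 3 NRF1 and 6 YY1 summits. For this role and those below, the top-10% shares over all genes were 6.47% (ZNF143), 26.7% (SP1), 15.1% (NRF1) and 28.5% (YY1). Each role holds few genes, so these counts do not set the roles apart. The strong ZNF143 summits of the Y complex were at AHCTF1, whose product ELYS brings the complex to chromatin after mitosis (3954 at −289), and at NUP43 (1923 at −84, in the 5′ UTR of its neighbour PCMT1). At AHCTF1, SP1 (46.2) and YY1 (16.3) had their lowest scores among the nucleoporin genes, while NRF1 scored 120 at +8, above the nucleoporin median of 56.6. NUP107 and NUP160, scaffold subunits, had ZNF143 scores of 11.4 (top 54.25%) and 24.5 (top 37.28%) beside 1 very strong other factor. NUP107 had NRF1 at 13394 (top 0.45%, at −49), and NUP160 had YY1 at 1677 (top 1.07%, at +273). NUP107 also had SP1 at 402 (−16) and YY1 at 435 (+3), and NUP160 had SP1 at 301 (+194) and NRF1 at 4.44 (+321), its list's lowest among the nucleoporin genes. NUP85 had NRF1 at 4687, while ZNF143 scored 6.27 there. NUP133, NUP37 and SEC13, which also serves in COPII coats, had ZNF143 scores of 29.2 to 121, and NUP133 had YY1 at 1393.

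SEH1L, the remaining Y complex gene, had no ZNF143 or NRF1 summit in its window. Its nearest ZNF143 summit lay at +519, just outside, with a score of 65.2, and its nearest NRF1 summit at +1300 scored 4147. SP1 (202 at −383) and YY1 (35.3 at +419) were both near the edge of the window. Just inside a window, the farthest of the highest summits was that of YY1 at NUP210, at +486.

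In the inner ring, which holds the scaffold to the membrane, ZNF143 summits stood at 3 of 5 genes and those of each other list at 4. The top 10% held 2 ZNF143, 4 SP1, 0 NRF1 and 4 YY1 summits. The 0 holds for the gene-record 5′ ends only, since at its MANE start NUP35 had an NRF1 summit in the top 3.35%. Beside NUP205, NUP93 had a strong ZNF143 summit (3067 at −21) with SP1 at 724. NUP188, the relative of NUP205, had a ZNF143 score of 4.35 but YY1 at 1482, in the top 1.20%. NUP155 had no ZNF143 summit in its window, the nearest lying at −8124. It carried SP1 at 258 (−36), NRF1 at 135 (−433) and YY1 at 192 (+33). NUP35 had no summit of any list in its window, and its summits were found at another start site, described below.

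Membrane nucleoporins are the only ones that span the envelope. All 4 had summits of all 4 lists, with 2 ZNF143, 1 SP1, 3 NRF1 and 2 YY1 summits in the top 10%. POM121 and POM121C, near-identical copies on chromosome 7, aligned at 244 positions over the 250 bp upstream of their 5′ ends, and 229 of these were identical (93.9%). Their NRF1 summits were alike, 6939 at −27 for POM121 and 3846 at −25 for POM121C. Their ZNF143 summits scored 515 at −153 and 2202 at −131. The 60 bases before each 5′ end are shown because the copies differ within them in the number of GCGTG repeats, in capitals, 5 in POM121 and 2 in POM121C. They are chr7:72879289-72879348 (plus) and chr7:75486300-75486359 (minus) in hg38. The 31 bp around the POM121 NRF1 and YY1 summits occur elsewhere on chromosome 7, in the case of YY1 also near POM121C, so those 2 scores are uncertain. Of the 160 summits in all windows, 156 had a single copy of their 31 bp in the reference.
POM121: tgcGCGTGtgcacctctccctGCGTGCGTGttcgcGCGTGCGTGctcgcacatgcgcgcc
POM121C: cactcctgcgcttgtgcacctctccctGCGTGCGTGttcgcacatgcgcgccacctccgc

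NUP210, the fourth membrane gene, had a ZNF143 score of 6.91 and a YY1 score of 301. In the 3 basket genes all factors were present, and the top 10% held the summits of 2 genes for ZNF143, 2 for SP1, 2 for NRF1 and all 3 for YY1. NUP50, a mobile basket protein that helps to release importin cargo, had the highest NRF1 score of the nucleoporin genes, 16063 at −45, in the top 0.22%, and a YY1 score of 1958 at +158, second to NUP205 at the gene-record 5′ ends. Its ZNF143 summit scored 28.8 at −60 and its SP1 summit 146 at −188. NUP153 was the reverse, with NRF1 at 51.9 (+48) beside its strong ZNF143 summit, SP1 at 584 (−49) and YY1 at 480 (−74). TPR had SP1 at 297 (+72), NRF1 at 1028 (+395) and YY1 at 815 (+73).

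The central channel genes encode the repeat proteins of the transport barrier. All 4 had all factors, with 0 ZNF143, 3 SP1, 1 NRF1 and 2 YY1 summits in the top 10%. For ZNF143, NUP58 (top 10.14%) and NUP62 (top 12.35%) lay just outside that bound. NUP62 had a very strong NRF1 summit, 15215 at +191 (top 0.26%), which falls in an intron of the overlapping gene ATF5, beside ZNF143 at 855 (+289), SP1 at 368 (−156) and YY1 at 200 (+385). NUP98, which makes both the repeat protein and the Y complex subunit NUP96, had the highest SP1 score of the nucleoporin genes, 1201 at +155 (top 1.52%), with ZNF143 at 86.5 (−189), NRF1 at 21.7 (+224) and YY1 at 104 (−301). After NDC1 came NUP54, with SP1 at 740 (+32, top 2.88%) beside ZNF143 at 10.4 (+94), NRF1 at 56.6 (+60) and YY1 at 498 (+77). The highest SP1 scores thus fell on a gene of the channel, a membrane gene and again a channel gene.

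The cytoplasmic side holds the genes for the filaments and for mRNA export. All 7 had all factors, with 1 ZNF143, 5 SP1, 3 NRF1 and 5 YY1 summits in the top 10%. NUP88 was the 1 with a strong ZNF143 summit, and had SP1 at 447 (+424), NRF1 at 10.0 (+132) and YY1 at 505 (+47). NRF1 was strong at NUP214 (8779 at −122), GLE1, an activator of the mRNA export helicase (4576 at −12), and RAE1, an mRNA export factor (2193 at +12). ZNF143 scored 18.1, 2.01 and 37.7 at these 3. The others, RANBP2, NUP42 and AAAS, had ZNF143 scores of 13.8 to 27.6. The 31 bp around the YY1 summit of RANBP2 occur at 4 places on chromosome 2, so its YY1 score is uncertain too.

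Of the 2 relatives, NUP62CL had SP1 at 298 (−42), NRF1 at 6.80 (+70) and YY1 at 40.1 (+65), and its nearest ZNF143 summit was 87588 bp away. NUP210L had none within 500 bp. Its nearest SP1 and YY1 summits, at +1301 and +1149, scored 2.04 and 2.09, at the floor of their lists.

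Most strong NRF1 summits lay near the NRF1 motif, here as over all genes. GCGCANGCG was within 50 bp of the summit at 8 of the 12 nucleoporin genes in the top 10% of the NRF1 list, against 61.7% of all such genes, and at 0 of 19 below it (upper Wilson bound 16.8%), against 3.65%. Over all 31 the count was 8, against 21.8%. The sites of these 8 genes are printed with the motif in capitals on whichever strand it lies, in hg38 and along the gene. NUP50, NUP62 and NUP107, the 3 strongest, hold the palindrome, which matches on both strands 1 base apart. The stretches are chr22:45163855-45163884 (plus) for NUP50, chr19:49929545-49929574 (minus) for NUP62, chr12:68686880-68686909 (plus) for NUP107, chr9:131125427-131125456 (plus) for NUP214, chr6:149749701-149749730 (minus) for NUP43, chr9:128504603-128504632 (plus) for GLE1, chr20:57351228-57351257 (plus) for RAE1 and chr1:53838122-53838151 (minus) for NDC1.
NUP50: ttccagggagctggGCGCATGCGCcgcgta
NUP62: ccgggcccagtGCGCATGCGCagccgcgcg
NUP107: tgtaggctgaagtcGCGCATGCGCtagatg
NUP214: caggaccatccaggGCGCAGGCGcagggac
NUP43: catcccccgcggcaCGCATGCGCtctgtga
GLE1: cagccaagccctgcGCGCAGGCGcactggt
RAE1: gaagtggctccaggGCGCACGCGcgttgtt
NDC1: agctctgatcgCGCGTGCGCgctgggcggg

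The SP1 and YY1 motifs were near a minority of these genes' summits. GGGCGG was within 50 bp of the SP1 summit at 10 of 32, against 43.4%, and AANATGGCG within 50 bp of the YY1 summit at 2 of 32 (NUP205 and NUP160), against 6.56%. Within 25 bp the counts were 5, against 25.7%, and 1, against 3.25%. Within 100 bp they were 13, against 63.8%, and 3, against 10.0%. The site of NUP160, at chr11:47848303-47848332 (minus), lies inside the gene beside the summit at +273, which falls in a coding exon.
NUP160 YY1: gcgacggcgggAAGATGGCGgcggcgggag

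In whole promoters the motif counts stood as follows, searched on both strands with no mismatch over the 300 bp described. ACTACAA was in 1 of 34 nucleoporin promoters, against 3.12% of all, and CCCANNATG in 3, against 4.52%. Either was in 3 (NDC1, NUP205 and NUP98), against 7.29%. GGGCGG was in 16, against 52.4%, GCGCANGCG in 6, against 9.03%, and AANATGGCG in 2, against 3.51%. These windows are short: within 500 bp either side, GGGCGG was in 30 promoters, against 72.0%, and ACTACAA or CCCANNATG in 5, against 20.7%. Around the 5′ ends of the MANE Select reference transcripts, which 33 of the genes have, AANATGGCG was in 5 promoters, against 5.07%, and ACTACAA or CCCANNATG in 1, against 6.97%. The GC content of the promoters had a median of 62.2%, against 60.3%, and the observed over expected CpG ratio 0.81, against 0.70.

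Strong ZNF143 and strong NRF1 summits met at a minority of the genes of either set, here as over all genes. The top-10% sets had 4 genes in common (NDC1, NUP43, POM121C and TPR), which is 44.4% of the ZNF143 set and 33.3% of the NRF1 set. Over all genes the shared part was 33.7% and 14.5%. SP1 and YY1 shared 19, which is 82.6% of the SP1 set and 86.4% of the YY1 set, against 68.9% and 64.4% over all genes. Spearman's rho between the ZNF143 and NRF1 scores was 0.01 over the 29 genes with both and 0.06 over 5729 genes of the genome, and between SP1 and YY1 it was 0.40 over 32 and 0.52 over 11017. For SP1 and NRF1 it was −0.31 over 31 and 0.08 over 9291, for NRF1 and YY1 −0.10 over 31 and 0.14 over 9283. ZNF143 had a rho of 0.12 with SP1 and 0.05 with YY1 over the 29 genes, against 0.09 over 6184 genes and 0.23 over 6161. These are descriptions across genes of lists that share the cell line and the promoter. NDC1 and TPR were in the top 10% of all 4 lists, against 1.21% of all genes. A further 9 genes were in that of 3 lists (7.57% of all genes), 12 in that of 2 (16.6%) and 7 in that of 1 (15.9%). NUP210L, NUP35, NUP58 and SEH1L were in none, against 58.7%.

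**Figure D3:**
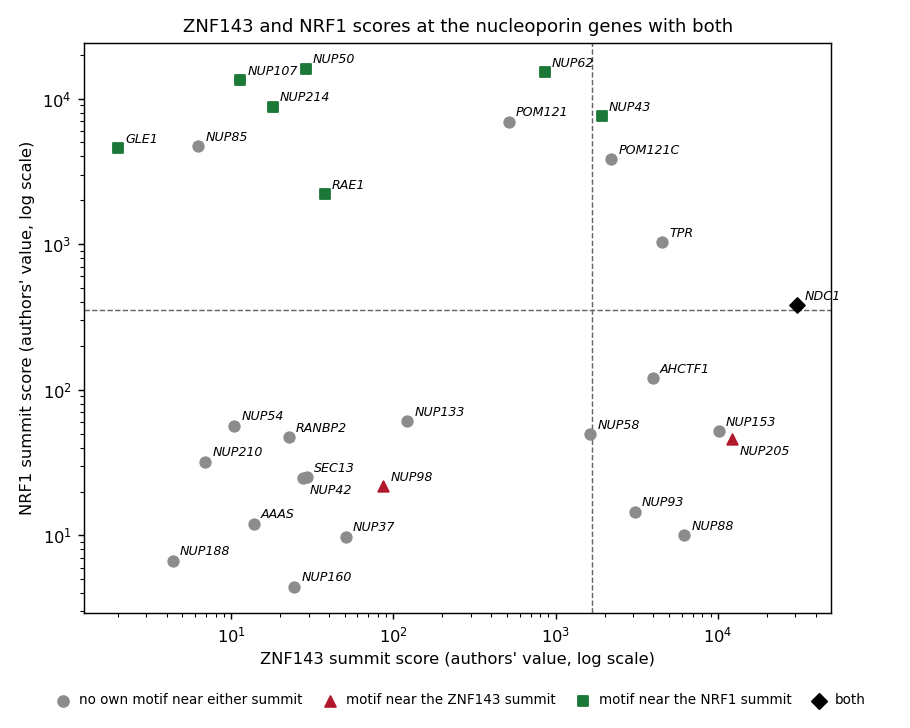
Score of the highest ZNF143 summit against that of the highest NRF1 summit at the 29 nucleoporin genes with both (both axes log, −log10 units, not comparable between axes), with dashed lines at the scores that bound the top 10% of each list and marker shapes for a motif within 50 bp of the ZNF143 summit, the NRF1 summit, both or neither. NUP50 and NUP107 lie high on NRF1 and low on ZNF143, NUP153 and NUP205 the other way, and NDC1, NUP43, POM121C and TPR are in the upper right.

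Within the window, the positions were as follows, and the plot of offsets shows them gene by gene. The highest ZNF143 summit had a median offset of −27 bp (quartiles −111 and 94, range −289 to 334), against −19 over all genes. The medians were −43.5 for SP1 against −38, +8 for NRF1 against −29, and +48 for YY1 against 60. The NRF1 median lay upstream at the MANE 5′ ends, at −35 against −65, and without genes that have a neighbour, at −12 against −27. The absolute offset had a median of 102 bp for ZNF143 against 110, 72 for SP1 against 93, 51 for NRF1 against 112, and 85 for YY1 against 146. From the ZNF143 summit, the nearest summit of the other lists was a median of 49 bp away for SP1 (54 over all genes), 74 for NRF1 (112) and 42 for YY1 (61).

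**Figure D4:**
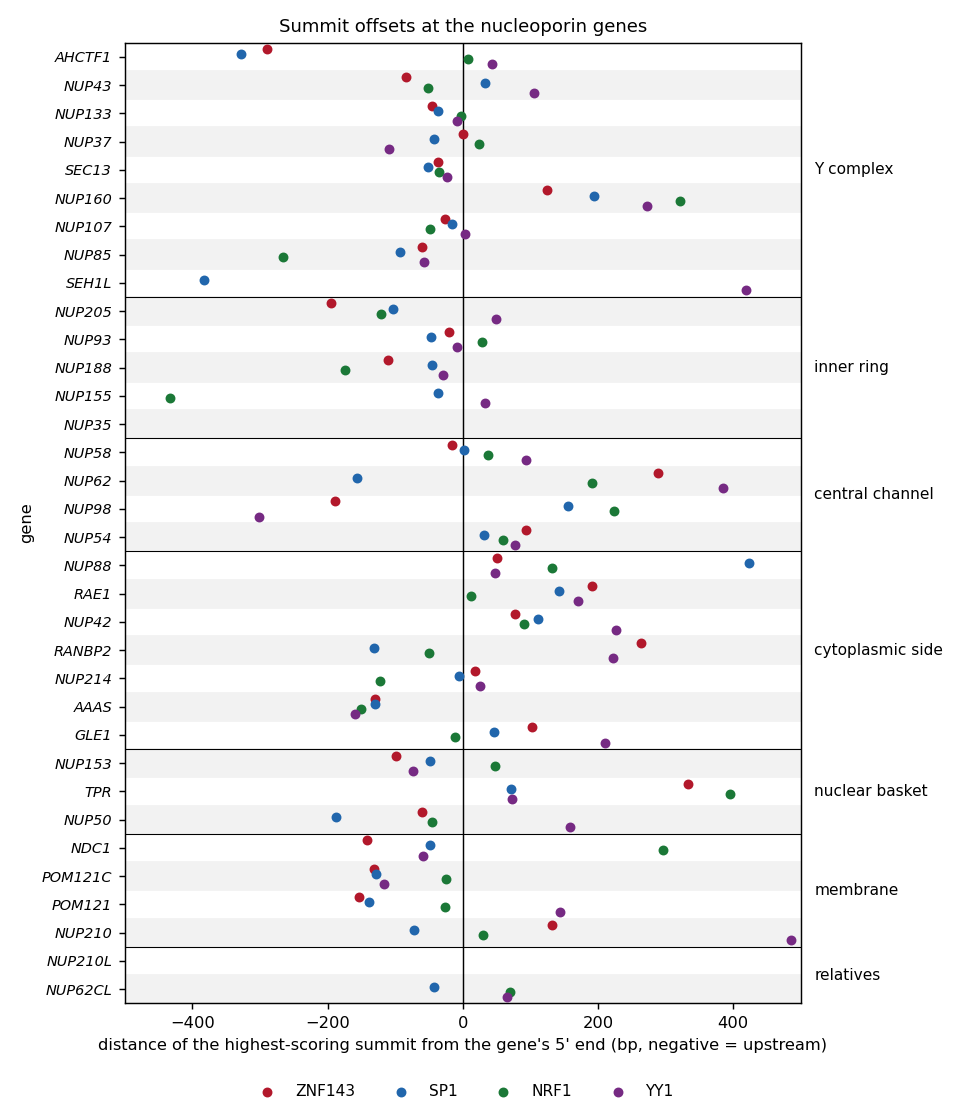
Offset in bp of the highest summit from the 5′ end, with 1 point per nucleoporin gene and list (colour), negative upstream, genes grouped by role and the 5′ end at the vertical line. The 4 points of SEC13 lie close together between −51 and −24, and those of NUP62 are spread from −156 to +385.

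Some windows reached a neighbouring gene. The 5′ end of another protein-coding gene lay within 1000 bp of 8 nucleoporin genes (23.5%), against 17.4% of all genes: ODR4 at TPR, PCMT1 at NUP43, DOLK at NUP188, PGAP2 at NUP98, PARPBP at NUP37, RPAIN at NUP88, IL4I1 at NUP62 and DNAAF6 at NUP62CL. All but IL4I1 ran on the opposite strand. Among the strong ZNF143 genes, TPR, NUP88 and NUP43 are of this kind, with the neighbour's 5′ end at −145, +523 and +221, and a summit list cannot assign their summits to either gene. Without the 8, ZNF143 was present at 22 of 26 genes, against 25.6% of all genes without such a neighbour, and in the top 10% at 6, against 4.77%.

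The choice of start site mattered for some genes. The 5′ end of the gene record lies upstream of that of the MANE Select transcript, the agreed reference transcript, by a median of 27 bp over the 33 genes that have one. At the MANE 5′ ends, SP1, NRF1 and YY1 summits were within 500 bp of all 33 genes (65.3, 53.5 and 63.9% of all genes) and ZNF143 summits of 31 (35.1%), NUP155 and NUP62CL being without one. NUP35, whose MANE start is 6930 bp downstream, there had ZNF143 at 52.1 (−59), SP1 at 141 (−89), NRF1 at 5075 (−108) and YY1 at 3644 (−95), the last in the top 0.41% and above the YY1 score of NUP205. SEH1L, 878 bp downstream, had ZNF143 at 65.2 (−359) and NRF1 at 4147 (+422). POM121, 45746 bp downstream, had ZNF143 at 3171 (−40) and NRF1 at 116. NUP43, 3136 bp downstream, had ZNF143 at 37.6 and NRF1 at 30.1, so its strong summits lie at the upstream start beside PCMT1. AAAS, 3254 bp downstream, had ZNF143 at 147 (−7), SP1 at 489 (+39) and YY1 at 388 (+25), each higher than at the gene record. TPR, 440 bp downstream, had its ZNF143 summit at −106 and its NRF1 summit at −45. NUP88, 502 bp downstream, kept its ZNF143 summit at −452 and had YY1 at 2488 (+58).

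The proteins that pass through the pore, importins, exportins and the Ran cycle, were described from a list of 33 genes. ZNF143 stood at 27 of them (81.8%), SP1, NRF1 and YY1 at 29 each (87.9%), and all of these together at 26 (78.8%), with 11 ZNF143, 20 SP1, 11 NRF1 and 26 YY1 summits in the top 10%. Over all genes these top-10% shares were 6.47, 26.7, 15.1 and 28.5%. The transport genes' ZNF143 scores had a median of 1474 (quartiles 19.6 and 3661) against 50.7 (18.1 and 2202) at the nucleoporin genes. The quartiles lay closer together than the medians. Their share in the ZNF143 top 10% was 33.3% (interval 19.8 to 50.4%), against 26.5% (14.6 to 43.1%) of the nucleoporin genes, with overlapping intervals. The difference was not tested. The 3 highest were RANGAP1, the activator of Ran's GTPase (28029 at −157), NUTF2, which carries Ran into the nucleus (16529 at −45), and IPO13, an importin (10326 at −224).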

How the data were processed

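The deposited files used here were the authors' 4 lists of summits, 1 per antibody, for 32 ChIP-seq samples. Column 5 of the deposited lists holds −log10 p or q, from the values and layout, and the lowest value is 2.00, as a cutoff of 0.01 would give. The submitters' processing notes name cutadapt, Bowtie2, SAMtools 1.16.1, MACS3 and bedtools, and the build hg38. Their settings, and whether treated and untreated samples were pooled, are not given in the sources used here. The labels tie the ZNF143 and SP1 lists to their treated and untreated samples, and the NRF1 and YY1 lists were recognised by the antibody in their names. Depth per sample is unknown.

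Summits on chromosomes 1 to 22 and X were matched to GENCODE 44 gene 5′ ends on hg38 (Python 3.11.15, numpy 2.4.6, scipy 1.17.1, matplotlib 3.10.9). Each gene took its highest-scoring summit within 500 bp. Shares carry Wilson 95% intervals, and the background is the same measure over 19970 protein-coding genes. Sequences were read from the hg38 reference. No test was run, since the lists hold no value per sample. The code was tested on simulated data. Members, motifs and the transport list were chosen with earlier results of these data known. Every gene was named under its role, with values in full for the 5 highest in the ZNF143 list, the 3 highest in each other list and those without a summit in some list. Alternatives changed the window (250 and 1000 bp), the 5′ end (MANE Select, or any protein-coding transcript), the summit taken (nearest), the score cut (top 50%), the list lengths, the promoter window and the motif distance (25 and 100 bp), and left out genes with a neighbour. The top-10% counts, the motif distances and TCCCAG were added after the data had been seen.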

Additional observations from a re-analysis of the deposited data

How the results depend on the processing

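Over the alternatives, 101 recomputed values stayed within 1.5 times the reported count (as a share where the number of genes changed) or, for medians, within 1 SD between genes, and 8 moved. The rule for medians is loose, since ZNF143 scores ran from 2.01 to 30790, so staying within it says little. A ZNF143 median of 28.99 without genes that have a neighbour, against 50.74, counted as stayed. So did an NRF1 median offset of −35 at the MANE 5′ ends, against +8. With equal list lengths all 4 lists met at 19 genes, against 18.1% of all genes. The ZNF143 motif was in 5 promoters within 500 bp either side (20.7% of all) and in 1 at the MANE 5′ ends (6.97%), against 3 as reported. The SP1 motif was in 30 within 500 bp either side (72.0%), against 16, and the YY1 motif in 5 at the MANE 5′ ends (5.07%), against 2. Within 25 bp of the summit, the SP1 motif stood at 5 genes (25.7%), the YY1 motif at 1 (3.25%) and TCCCAG at 7 (14.1%), against 10, 2 and 11 within 50 bp. Among the 34 genes, those with a ZNF143 summit numbered 23 with the top 50% of each list (19.3% of all genes), 26 with a window of 250 bp (26.1%), 30 with 1000 bp (35.3%) and 31 with any protein-coding transcript's 5′ end (37.6%). No paired analysis was possible because the lists hold no value per sample, and for the same reason no replicate could be left out.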
